A study of Mus musculus with 6 samples.

Results

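The genes described here encode the TGF-beta ligands (Tgfb1, Tgfb2, Tgfb3), their receptors (Tgfbr1, Tgfbr2, Tgfbr3) and the latent TGF-beta binding proteins (Ltbp1, Ltbp2, Ltbp3, Ltbp4) of the mouse. They were taken by symbol from the expression table, in which all 10 were found among 52369 genes. Expression was measured by RNA sequencing in regenerating tibialis anterior muscle, a muscle of the front of the lower leg. The L7 group (n = 3) was labelled as a gain of function of Linc-smad7, a long non-coding RNA, and the control group (n = 3) is labelled only as control. Mice of both groups were C57BL/6, and their muscle was injured at 5 weeks of age with cardiotoxin (10 µM, 50 µl), a venom peptide that kills fibres while the satellite cells, which rebuild them, survive. Per the labels, both groups also received 6.25 µg of pcDNA3.1, an expression plasmid, with an in vivo transfection reagent in 50 µl on days 0.5, 2 and 4. The labels do not say what the control plasmid carried or which cells of the muscle took up the plasmid. The muscle was taken on day 7, at 6 weeks of age, and the labels do not say whether libraries of 1 group came from separate mice. P-values therefore measure the spread between these libraries only.

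TGF-beta ligands are secreted as latent dimers that stay bound to their own cleaved propeptide, and most of this complex is joined by a disulphide bond to a latent TGF-beta binding protein that anchors it to fibrillin and fibronectin in the matrix. Integrins and proteases release the ligand, which binds the type II receptor Tgfbr2. Tgfbr2 then phosphorylates the type I receptor Tgfbr1, and Tgfbr1 phosphorylates Smad2 and Smad3. In injured muscle, macrophages and fibro-adipogenic progenitors, the matrix-forming mesenchymal cells of muscle, are known sources of and responders to TGF-beta, and TGF-beta signalling is known to restrain myoblast fusion and to drive matrix deposition.

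The depth was 22179456, 20725423 and 21187694 reads in genes for L7 and 20897439, 19420012 and 24663153 for control libraries. L7 replicate 3 stood apart. It correlated with the others over genes at 0.920 to 0.951, and it lay at 72.2 on a first principal component (67.1% of variance) that held the other 5 libraries between -29 and -3.83. Median of ratios scaling, which aligns the typical gene across libraries, gave this library a factor of 0.773 and the others factors of 1.03 to 1.10, and the median log2 difference over 14788 tested genes was -0.0015 with it, against -0.15 without. Reads of Y-linked genes marked 1 L7 library and 2 control libraries as male. No identifier of the expression table is named Linc-smad7. Gm20544, an annotated transcript beside Smad7 whose identity with Linc-smad7 is not stated, was at 10.7, 15.7 and 5.47 FPKM in L7 libraries and at 1.87, 2.54 and 1.70 FPKM in control libraries, with a limma adjusted p of 0.580. FPKM scales fragments to gene length and library depth, so levels of different genes can be compared on it.

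Because the title of the series names miR-125b, its mature sequence is shown with the seed, bases 2 to 8, in capitals. It is encoded at 2 places, chr9:41581940-41581961 and chr16:77646279-77646300, both on the plus strand (RefSeq, GRCm38.p6).
mmu-miR-125b-5p: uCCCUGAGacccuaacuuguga
The DNA letters that pair with this seed, CTCAGGG, were searched in the longest annotated 3 prime untranslated region of each gene. They occurred in 0 of the 10 genes, whose regions ran from 135 bases in Tgfb1 to 6085 bases in Tgfbr2. The same letters occurred in 1985 of 12720 tested genes with such a region (15.6%), whose median length was 1164 bases. This says only that these letters are not in these regions.

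All 10 genes were expressed in every library. Ordered by mean FPKM over the 6 libraries, Tgfb1 stood first with 86.2 FPKM, ahead of Ltbp2 (67.3 FPKM), Ltbp4 (54.1 FPKM), Ltbp3 (50.5 FPKM), Tgfb3 (39.5 FPKM), Tgfbr2 (36.8 FPKM), Tgfbr1 (24.8 FPKM), Ltbp1 (21.4 FPKM), Tgfbr3 (17.0 FPKM) and Tgfb2 (13.4 FPKM). Among the 14788 genes tested, Tgfb1 ranked 1355, which is 9.16% from the top, and Tgfb2 ranked 7236, which is 48.9% from the top. The order was not firm at each step, since the ranges of every pair of neighbours overlapped. Tgfb1 lay above Ltbp2, Ltbp3 above Tgfb3 and Tgfbr2 above Tgfbr1 in 6 of 6 libraries, while Ltbp4 lay above Ltbp3 in only 2 of 6. Between 380 reads (Tgfb2, control replicate 3) and 7643 reads (Ltbp2, L7 replicate 1) stood behind each value.

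**Figure D1:**
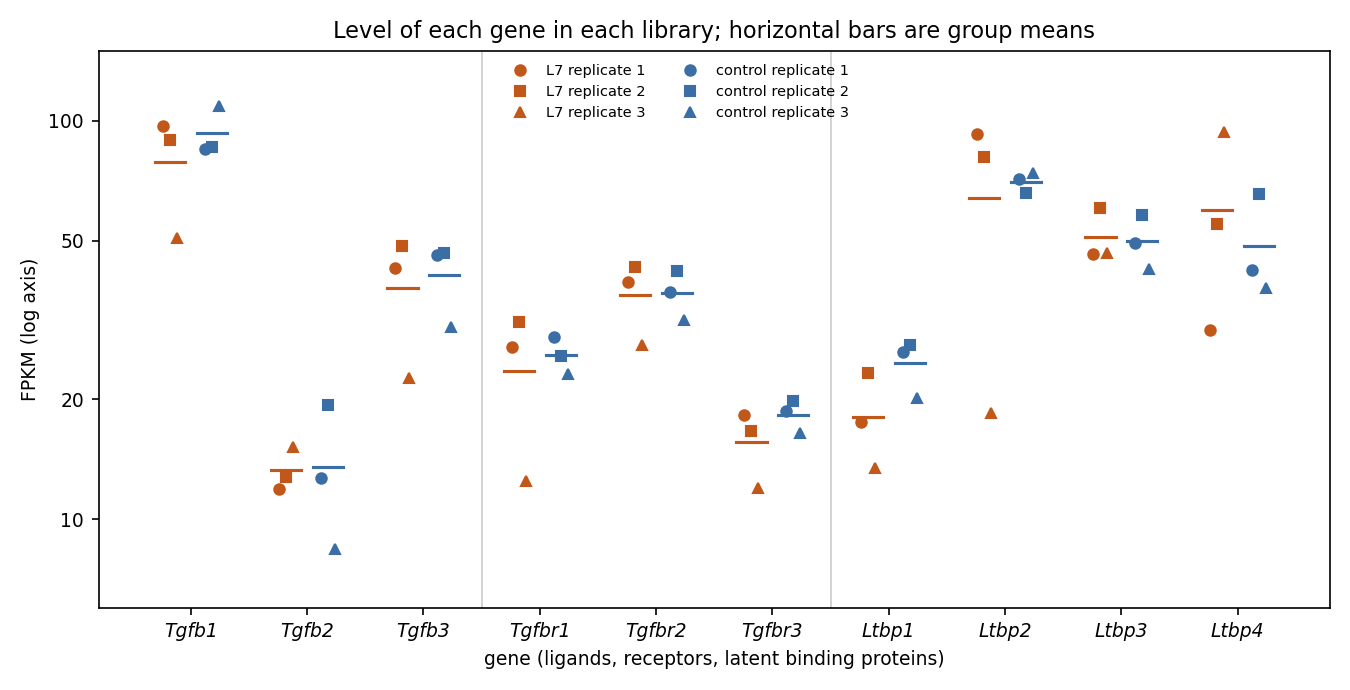
FPKM of each gene in each library on a log axis, with L7 libraries left of control libraries for each gene, symbols for the replicate and horizontal bars at the group means. Ltbp2 in L7 replicate 3 (18.5 FPKM) lies far below the other 5 libraries (66.0 to 93.0 FPKM), and Ltbp4 in the same library (93.8 FPKM) lies above the others (30.0 to 65.6 FPKM).

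Among the ligands, Tgfb1 (ENSMUSG00000002603; mm10 chr7:25687002-25705077, plus strand), the ligand of highest level and the one most tied to immune cells and fibrosis, was at 96.9, 89.4 and 50.9 FPKM in L7 libraries, against 85.2, 85.9 and 109 FPKM in control libraries. The L7 libraries held both the lowest value and the second highest, so the groups overlapped. Its means were 79.0 ± 24.7 FPKM in L7 and 93.3 ± 13.4 FPKM in control libraries (SD, n = 3 each), and its log2 difference was -0.28 ± 0.26 (SE), with a limma adjusted p of 0.612. Log2 differences are L7 minus control on the log2(FPKM + 1) scale throughout. Summed FPKM of 14 macrophage markers was 5361, 4475 and 2753 in L7 and 4217, 3838 and 5397 in control libraries. The 3 libraries of highest macrophage sum were, in the same order, the 3 of highest Tgfb1 level, and L7 replicate 3 was lowest in both. Control replicate 1 was above control replicate 2 in the macrophage sum but below it in Tgfb1. Both quantities are unscaled, so the scaling of a library moves them together. The part of macrophage number in the Tgfb1 level was not tested, and in whole muscle fewer cells of a type and less RNA per cell cannot be told apart.

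Tgfb2 (ENSMUSG00000039239; chr1:186622792-186705989, minus strand), the ligand with low affinity for Tgfbr2 alone, was at 11.9, 12.8 and 15.2 FPKM in L7 and at 12.7, 19.4 and 8.43 FPKM in control libraries. The control libraries spanned a wider range than the L7 libraries and enclosed all of them. Its means were 13.3 ± 1.71 FPKM in L7 and 13.5 ± 5.52 FPKM in control libraries (SD, n = 3 each), with a log2 difference of 0.045 ± 0.28 (SE; limma adjusted p = 0.936).

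Tgfb3 (ENSMUSG00000021253; chr12:86056745-86079041, minus strand), a ligand of mesenchymal tissue, was at 42.8, 48.7 and 22.7 FPKM in L7 and at 46.0, 46.5 and 30.5 FPKM in control libraries. The lowest of the 6 values was in L7 replicate 3, and the other L7 values lay within or above the control range. Its log2 difference was -0.15 ± 0.31 (SE; limma adjusted p = 0.802). Tgfb3 overlaps Ttll5 on the other strand (4.98 FPKM), and no source used here says whether the counting used strand, so its level may hold reads of that gene.

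Among the receptors, Tgfbr2 (ENSMUSG00000032440; chr9:116084293-116175360, minus strand), the ligand-binding type II kinase, was the receptor of highest level. It was at 39.4, 43.1 and 27.4 FPKM in L7 and at 37.2, 41.99 and 31.6 FPKM in control libraries, so the L7 values enclosed the control values. Its means were 36.6 ± 8.22 FPKM in L7 and 36.9 ± 5.22 FPKM in control libraries (SD, n = 3 each). The log2 difference was -0.028 ± 0.21 (SE), with a 95% interval of -0.51 to 0.45 and a limma adjusted p of 0.946.

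Tgfbr1 (ENSMUSG00000007613; chr4:47353222-47414931, plus strand), the type I kinase, was at 27.0, 31.3 and 12.5 FPKM in L7 and at 28.7, 25.8 and 23.2 FPKM in control libraries. L7 replicate 3 alone lay below the control range, and L7 replicate 2 lay above it. The log2 difference was -0.22 ± 0.32 (SE; limma adjusted p = 0.726), and without L7 replicate 3 it was 0.17 ± 0.12 (SE; limma adjusted p = 0.806). Tgfbr3 (ENSMUSG00000029287; chr5:107106570-107289629, minus strand), or betaglycan, is a co-receptor with no kinase that presents ligand, above all TGF-beta 2, to Tgfbr2. It was at 18.2, 16.7 and 12.01 FPKM in L7 and at 18.7, 19.8 and 16.5 FPKM in control libraries, so that 2 L7 libraries lay within the control range and L7 replicate 3 lay below it. Its log2 difference was -0.23 ± 0.19 (SE), with a 95% interval of -0.67 to 0.20 and a limma adjusted p of 0.585, and without L7 replicate 3 it was -0.064 ± 0.11 (SE; limma adjusted p = 0.921).

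Among the latent binding proteins, Ltbp1 (ENSMUSG00000001870; chr17:75005568-75392512, plus strand), which binds the latent forms of all the ligands, was at 17.6, 23.3 and 13.4 FPKM in L7 and at 26.3, 27.5 and 20.2 FPKM in control libraries. L7 replicate 2 lay inside the control range and the other L7 libraries lay below it. Its means were 18.1 ± 4.97 FPKM in L7 and 24.7 ± 3.92 FPKM in control libraries (SD, n = 3 each). The log2 difference of -0.45 ± 0.22 (SE; 95% interval -0.97 to 0.08) had the smallest unadjusted limma p of the 10 genes, 0.0853, and an adjusted p of 0.580. The exact two-sided permutation p was 0.2, where 3 libraries against 3 cannot go below 0.1.

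Ltbp2 (ENSMUSG00000002020; chr12:84783212-84876532, minus strand) shares the family's structure but does not bind latent TGF-beta, and is known as a protein of elastic microfibrils. It was at 93.0, 81.1 and 18.5 FPKM in L7 and at 71.5, 66.0 and 73.8 FPKM in control libraries. L7 replicates 1 and 2 lay above all the control libraries and L7 replicate 3 lay far below them. The mean over all L7 libraries, 64.2 ± 40.05 FPKM, therefore lay near the control mean of 70.5 ± 4.04 FPKM (SD, n = 3 each), and the log2 difference was -0.43 ± 0.55 (SE; limma adjusted p = 0.697). Without L7 replicate 3 the log2 difference was 0.30 ± 0.10 (SE) (limma unadjusted p = 0.0259, adjusted over all genes 0.738). With median of ratios scaling as well it was 0.33 ± 0.099 (SE; adjusted p = 0.733). So the sign of Ltbp2 rested on 1 library and neither value passed the test.

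Ltbp3 (ENSMUSG00000024940; chr19:5740904-5758532, plus strand), which also carries latent TGF-beta, had the narrowest interval of the 10 genes, at 46.2, 60.4 and 46.5 FPKM in L7 and at 49.5, 58.1 and 42.4 FPKM in control libraries. The groups covered nearly the same range, and the log2 difference was 0.029 ± 0.18 (SE; 95% interval -0.39 to 0.45; limma adjusted p = 0.935). Ltbp4 (ENSMUSG00000040488; chr7:27305136-27337692, minus strand) is known in mice as a genetic modifier of muscular dystrophy, in which it sets how readily latent TGF-beta is released. It was at 30.0, 55.1 and 93.8 FPKM in L7 and at 42.3, 65.6 and 38.1 FPKM in control libraries. The L7 libraries held both the lowest and the highest of the 6 values. Means were 59.6 ± 32.2 FPKM in L7 and 48.7 ± 14.9 FPKM in control libraries (SD, n = 3 each), and the log2 difference of 0.18 ± 0.40 (SE; limma adjusted p = 0.817) was -0.21 ± 0.32 (SE; limma adjusted p = 0.909) without L7 replicate 3.

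Across the family, 0 of 10 genes passed limma at an adjusted p under 0.05, against a background of 0% of the 14788 genes in either direction, and limma voom on recovered reads also called 0 of 10 at that adjusted p. At an unadjusted p under 0.05, 0 of 10 members passed, against 5.9% of all genes, 1.65% higher and 4.25% lower in L7. The L7 and control ranges failed to overlap for 0 of 10 members, against 19.2% of all genes, 5.49% wholly higher and 13.7% wholly lower in L7. The log2 difference was negative for 7 of the 10, where 70.8% of all genes were negative. The median over the 10 genes was -0.18, against -0.15 over all genes, and with median of ratios scaling it was -0.015, against -0.0015 over all genes. With scaling and without L7 replicate 3, the median was 0.079, and 4 of the 10 were negative, against 51.1% of all genes. These shares lie near the background, and the intervals do not show that the groups were alike, since the 95% interval of Ltbp2 ran from -1.72 to 0.87.

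**Figure D2:**
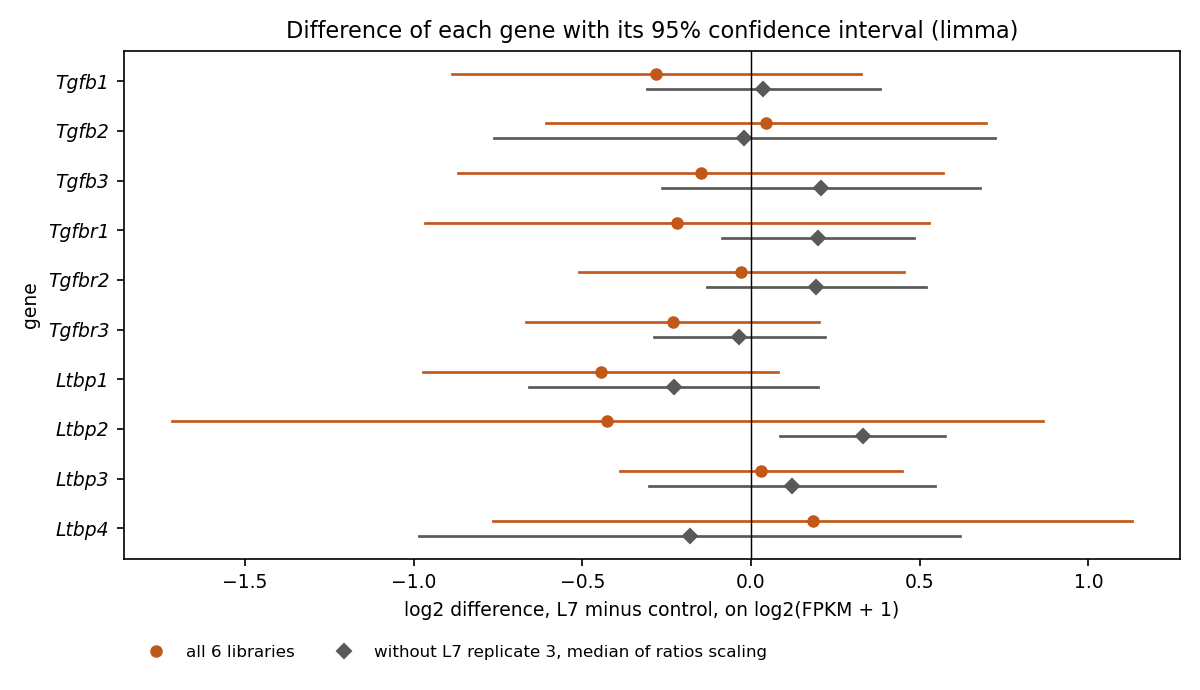
Log2 difference (L7 minus control, log2(FPKM + 1) scale) of each gene with its 95% interval from limma, over all 6 libraries and without L7 replicate 3 on median of ratios scaled values. All 10 intervals over the 6 libraries cross 0, and without that library the interval of Ltbp2 lies between 0.087 and 0.57.

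The shares of each gene within its role do not depend on the scaling of a library. Tgfb1 took 57.3% to 63.9% of the summed ligand FPKM in L7 and 56.6% to 73.6% in control libraries, and was the main ligand in all 6. Tgfbr2 took 46.6% to 52.8% of the receptor sum in L7 and 44.0% to 48.0% in control libraries, with the ranges overlapping. Ltbp1 took 9.42%, 10.6% and 7.80% of the sum of the binding proteins in L7 and 13.9%, 12.6% and 11.6% in control libraries. The groups did not overlap for this share, with means of 9.27 ± 1.41% in L7 and 12.7 ± 1.16% in control libraries (SD, n = 3 each). This share was singled out after the shares of all 10 genes were seen, and no test was made of it. Ltbp2 took 10.7% to 49.8% of that sum in L7 and 30.4% to 42.3% in control libraries, and Ltbp4 took 16.0% to 54.5% in L7 and 21.8% to 30.2% in control libraries. The summed FPKM of the binding proteins was 172 to 220 in L7 and 175 to 217 in control libraries. The ligand sum was 88.8 FPKM in L7 replicate 3, against 144 to 152 FPKM in control libraries. Unlike the shares, these sums are unscaled and depend on scaling. Median of ratios scaling would raise the sums of L7 replicate 3 (factor 0.773) and lower those of the other libraries.

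**Figure D3:**
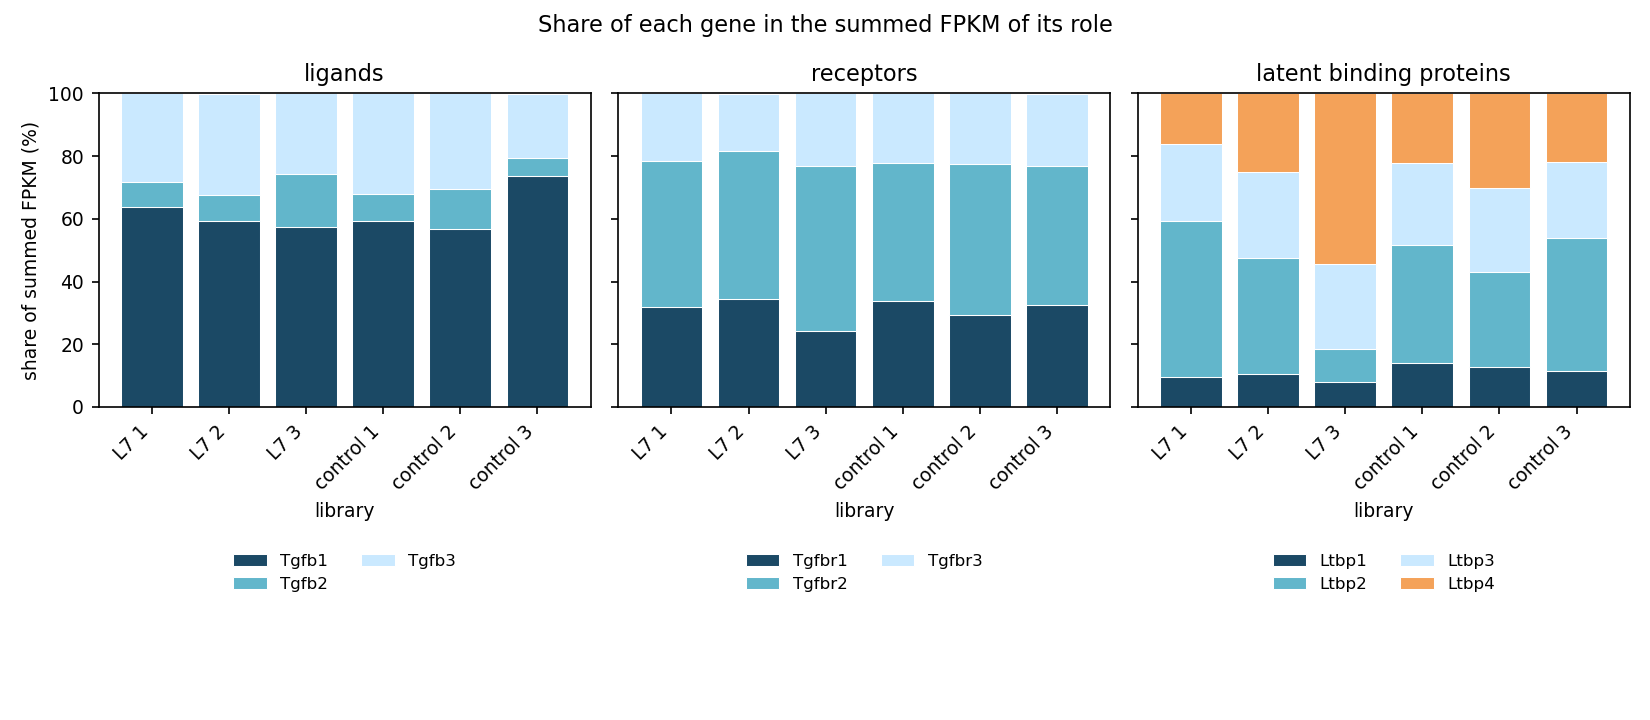
Share of each gene in the summed FPKM of its role (ligands, receptors, latent binding proteins) as stacked bars in percent, 1 bar per library with L7 libraries left of control libraries. Ltbp2 shrinks to 10.7% and Ltbp4 grows to 54.5% of the binding proteins in L7 replicate 3, and the Ltbp1 share is 7.80% to 10.6% in L7 and 11.6% to 13.9% in control libraries.

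For most of the 10 genes the spread within the L7 group came mainly with L7 replicate 3. For Ltbp3 it came with L7 replicate 2 (46.2, 60.4 and 46.5 FPKM), and Ltbp1 and Ltbp4 also differed between L7 replicates 1 and 2. L7 replicate 3 was the lowest of the 6 libraries for 7 of the 10 genes, where 63.2% of all genes had it lowest. It was the highest for Ltbp4 alone, where 17.6% had it highest. After median of ratios scaling it was lowest for 5 (35.3% of all genes) and highest for 3 (36.4%). Tgfb3, Tgfbr1 and Tgfbr2 each had their highest value in L7 replicate 2 and their lowest in L7 replicate 3, an order held by 4.41% of all genes. This order was singled out after the values were seen, and no test was made of it. Over the 6 libraries these 3 genes correlated with each other at 0.883 to 0.97, so they are not 3 separate cases. On scaled FPKM, Ltbp2 in L7 replicate 3 was 3.52-fold lower than the mean of L7 replicates 1 and 2. On the scaled log2(FPKM + 1) scale its shift was -1.77, with 0.223% of genes at or below it. Ltbp4 was 2.95-fold higher on scaled FPKM, with a log2 shift of 1.60 and 97.6% of genes at or below it. Tgfbr1 was shifted by -0.76, Tgfb3 by -0.57, Tgfb1 by -0.44 and Tgfb2 by 0.68. The ratio of Ltbp2 to Ltbp4 in FPKM was 3.10, 1.47 and 0.197 in L7 and 1.69, 1.01 and 1.94 in control libraries, so L7 replicate 3 was the only library in which Ltbp4 exceeded Ltbp2. In the control group, replicate 3 was the lowest library for 8 of the 10 genes, all but Tgfb1 and Ltbp2, where 41.7% of all genes had it lowest.

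Cell type markers moved in the same library. On the same shift scale the median was 1.99 over 10 markers of adult muscle fibres, 1.52 over the 3 tested of 7 adipocyte markers, 0.75 over 12 markers of fibro-adipogenic progenitors, -0.70 over 14 macrophage markers and -1.40 over 6 neutrophil markers, against -0.004 over all genes. The marker sums that follow are unscaled, unlike these shifts. Summed FPKM of the fibre markers was 32344, 34924 and 95067 in L7 and 21511, 29906 and 28106 in control libraries. L7 replicates 1 and 2 thus also lay above all the control libraries. All 10 fibre markers had a positive log2 difference, and 5 were wholly higher in L7, against 5.49% of all genes. With scaling and without L7 replicate 3 all 10 stayed positive, with a median of 0.39, against -0.0037 over all genes. The sum of the progenitor markers was 1778 to 1985 in L7, highest in L7 replicate 3, and 2017 to 2239 in control libraries. Median of ratios scaling would raise the sum of L7 replicate 3 (factor 0.773) and lower the others, so these ranges would overlap. Of those 12 progenitor markers, 6 had a positive and 6 a negative log2 difference. The most abundant, Ly6a, was at 706, 657 and 513 FPKM in L7 and at 1041, 783 and 1236 FPKM in control libraries. Ly6a thus made up a large part of these sums and of their difference. Gsn went the other way, at 323, 260 and 435 FPKM in L7 and at 223, 236 and 270 FPKM in control libraries, with overlapping groups. The adipocyte sum is mostly Car3, which muscle also expresses, while the adipocyte hormone Adipoq was at 3.20, 1.21 and 1.55 FPKM in L7 and at 0.261, 0.618 and 1.06 FPKM in control libraries, highest in L7 replicate 1. The neutrophil sum was 305, 155 and 51.3 in L7 and 273, 166 and 267 in control libraries, and the Schwann cell sum was 16.7, 19.8 and 58.7 in L7 and 15.5, 16.0 and 15.5 in control libraries. L7 replicate 3 thus held the highest fibre, adipocyte and Schwann cell sums and the lowest macrophage and neutrophil sums of the 6 libraries. No marker of any list was at 0 in all 6 libraries, and the fibre markers, the defining genes of the labelled tissue, were high in each, with Acta1 at 11188, 12031 and 33716 FPKM in L7 and 5718, 9450 and 9339 FPKM in control libraries. Whether these cell types have a part in the levels of Ltbp2 and Ltbp4 was not tested.

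**Figure D4:**
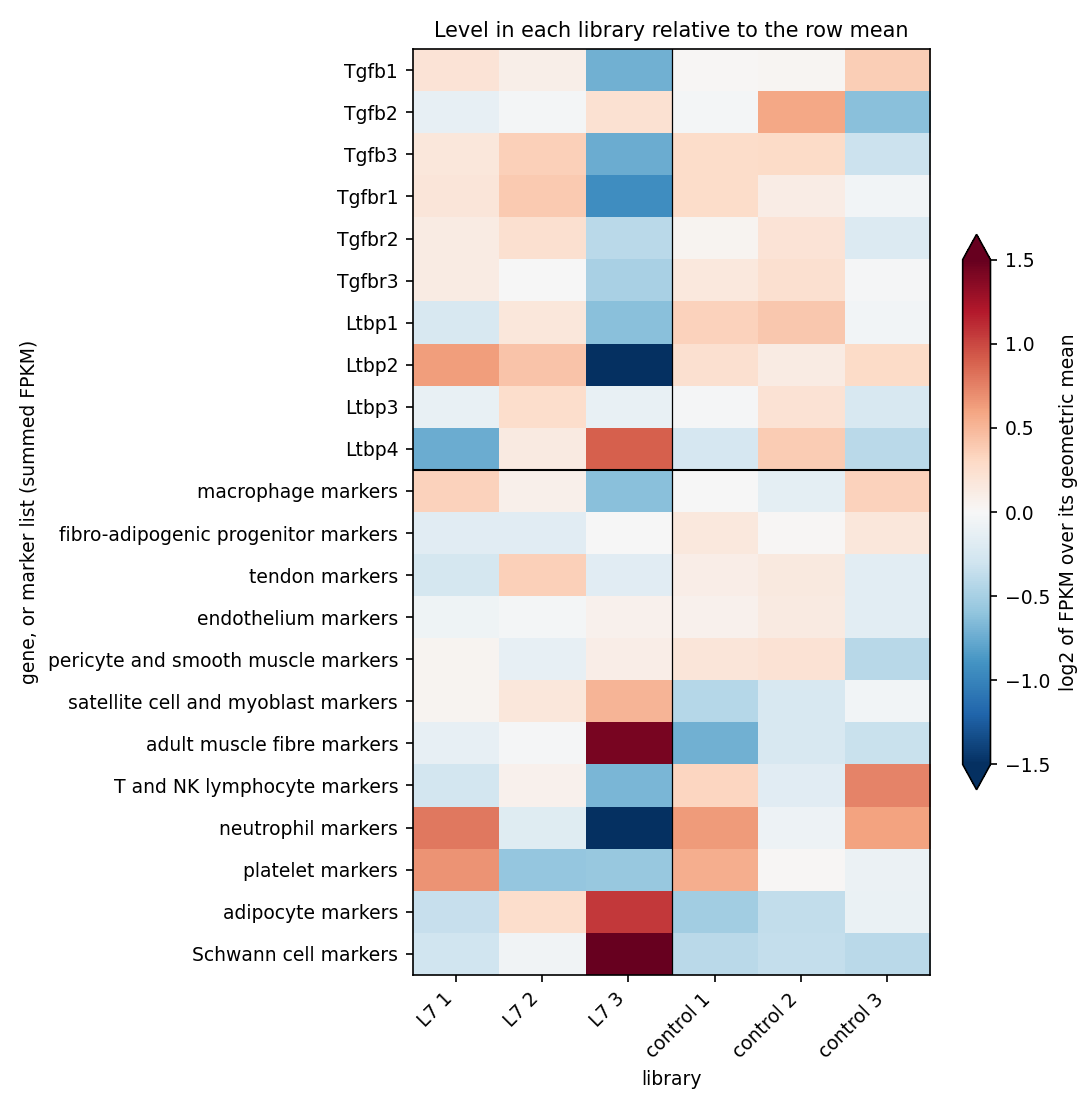
Log2 of the FPKM of each gene, or of the summed FPKM of each marker list, over its geometric mean across the 6 libraries, as colour, with L7 libraries left of control libraries. In the column of L7 replicate 3, Ltbp2 (18.5 FPKM) is low, as are the neutrophil markers, and Ltbp4 (93.8 FPKM) is high, as are the adult fibre, adipocyte and Schwann cell markers.

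Ltbp2 and Ltbp4 were the members that parted most between libraries, so the 250 bases before their annotated starts are shown (RefSeq, GRCm38.p6, minus strand; Ltbp2 chr12:84876492-84876741, first Ltbp4 start chr7:27337613-27337862). These RefSeq starts lie inside the gene spans given above, which come from another annotation, so the part of each stretch nearest the start falls within the span. Capitals mark the letters CAGAC, in which SMAD proteins are known to bind, or their reverse complement GTCTG.
Ltbp2: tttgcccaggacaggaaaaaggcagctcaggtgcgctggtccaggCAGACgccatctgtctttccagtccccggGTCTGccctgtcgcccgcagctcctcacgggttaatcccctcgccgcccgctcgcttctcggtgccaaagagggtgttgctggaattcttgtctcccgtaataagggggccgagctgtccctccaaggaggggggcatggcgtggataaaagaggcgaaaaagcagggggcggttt
Ltbp4: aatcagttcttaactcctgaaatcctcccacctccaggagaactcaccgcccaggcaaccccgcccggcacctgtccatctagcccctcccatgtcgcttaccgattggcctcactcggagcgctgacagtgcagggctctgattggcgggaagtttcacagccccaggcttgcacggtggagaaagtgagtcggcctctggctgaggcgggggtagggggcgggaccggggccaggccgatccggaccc
The Ltbp2 stretch held these letters in 2 places and the Ltbp4 stretch in 0. Promoters were matched for 8 of the 10 genes, with 12 start sites, and 7 of the 12 held the letters on either strand, against 42.2% of 32851 promoters of the same length. The E-box CAGCTG, the letters read by myogenic factors such as MyoD, was in 0 of the 12, against 13% of all promoters. A match is only a match of letters.

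The steps around the family were followed with 4 further lists. Of 22 activators and matrix anchors of latent TGF-beta, 20 were tested and 0 passed limma. An unadjusted limma p under 0.05 was reached by 1 of the 20, against 5.9% of all genes. The log2 difference was negative for 19 of the 20, against 70.8% of all genes. The median of these differences was -0.34, against -0.15 over all genes. With scaling and without L7 replicate 3 it was -0.0051, and 10 of 20 were negative, against 51.1% of all genes. Tgm2, a transglutaminase that crosslinks LTBPs into the matrix, was at 108, 98.8 and 69.6 FPKM in L7 and at 138, 117 and 165 FPKM in control libraries. The groups of Tgm2 did not overlap, and its log2 difference was -0.61 ± 0.22 (SE), with a limma adjusted p of 0.580. Of the 20 tested genes of this list, 1 was wholly lower in L7, against 13.7% of all genes. Mmp14, a membrane protease, had the highest level of the list with 562 ± 162 FPKM in L7 and 720 ± 189 FPKM in control libraries (SD, n = 3 each), and Itgb3, a chain of an integrin that releases TGF-beta, was at 5.14 ± 1.498 FPKM in L7 and 7.11 ± 1.34 FPKM in control libraries. Both had overlapping groups.

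Of 20 co-receptors, antagonists and receptor regulators, 19 were tested, 0 passed and 0 had an unadjusted p under 0.05, with 16 negative log2 differences (70.8% of all genes were negative) and a median of -0.22, against -0.15 over all genes. With scaling and without L7 replicate 3, 13 of 19 were negative, against 51.1% of all genes, and the median was -0.058. Bgn, the matrix proteoglycan biglycan that binds TGF-beta, had 1226 ± 415 FPKM in L7 and 1338 ± 153 FPKM in control libraries (SD, n = 3 each). Pmepa1, a SMAD-induced inhibitor of the pathway, was at 37.7, 44.7 and 26.1 FPKM in L7 and at 53.8, 60.2 and 39.8 FPKM in control libraries, and 1 L7 library lay within the control range. Ppp1r15a, which directs a phosphatase to Tgfbr1 together with Smad7, was at 11.4, 13.6 and 12.03 FPKM in L7 and at 15.0, 14.7 and 16.0 FPKM in control libraries, without overlap. Its limma adjusted p was 0.580. Among the 19 tested genes of this list, 4 were wholly lower in L7, against 13.7% of all genes.

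Of the 5 SMAD genes, 0 passed and 0 had an unadjusted p under 0.05. Smad3, the receptor-activated SMAD, had 56.2 ± 4.15 FPKM in L7 and 56.1 ± 4.604 FPKM in control libraries (SD, n = 3 each), a log2 difference of 0.0027 ± 0.14 (SE). Smad2 was at 22.3, 23.0 and 12.5 FPKM in L7 and at 24.0, 23.6 and 24.7 FPKM in control libraries, without overlap, as 13.7% of all genes were wholly lower in L7. Its log2 difference was -0.35 ± 0.23 (SE), and -0.053 with scaling and without L7 replicate 3. Smad4, the common partner, was at 42.3 ± 10.4 FPKM in L7 and 47.3 ± 1.40 FPKM in control libraries (SD, n = 3 each). Smad7, the inhibitor, was at 9.86, 14.2 and 7.76 FPKM in L7 and at 12.3, 10.6 and 13.4 FPKM in control libraries. The Smad7 groups overlapped, with a log2 difference of -0.20 ± 0.22 (SE; limma adjusted p = 0.657).

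Of 28 genes known to respond to TGF-beta, 27 were tested, 0 passed limma and 3 had an unadjusted p under 0.05, all lower in L7, where 4.25% of all genes did so. The log2 difference was negative for 26 of 27 (96.3%), against 70.8% of all genes, and the median was -0.42. With scaling and without L7 replicate 3, 19 of 27 (70.4%) were negative, against 51.1% of all genes, and the median was -0.074. Ccn2, a matricellular protein induced by TGF-beta, was at 13.4, 20.5 and 8.93 FPKM in L7 and at 29.6, 27.7 and 24.8 FPKM in control libraries. The groups of Ccn2 did not overlap, and its log2 difference was -0.96 ± 0.27 (SE), with a limma adjusted p of 0.580, and -0.65 with scaling and without L7 replicate 3. Timp1, an inhibitor of matrix metalloproteinases, was at 141, 135 and 54.0 FPKM in L7 and at 192, 171 and 228 FPKM in control libraries, also without overlap. Its log2 difference was -0.95 ± 0.36 (SE; adjusted p = 0.580), and -0.47 with scaling and without L7 replicate 3. In this list 3 of the 27 tested genes were wholly lower in L7, against 13.7% of all genes. Col1a1, the main collagen and the gene of highest level in the list, was at 7151 ± 1899 FPKM in L7 and 7376 ± 1652 FPKM in control libraries (SD, n = 3 each), with a log2 difference of -0.057 ± 0.35 (SE).

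The genes whose log2(FPKM + 1) profile was most like that of the highest member of each role were found by Pearson's r over the 6 libraries. All such values share L7 replicate 3 as an outlying point, so r is given again over the other 5 libraries. For Tgfb1 they were Synj1 (r = 0.998, or 0.985 without L7 replicate 3), Grb2 (0.998, or 0.992) and Pik3ap1 (0.998, or 0.987). For Tgfbr2 they were Map1a (0.994, or 0.984), Ctif (0.992, or 0.980) and Agap3 (0.990, or 0.982). For Ltbp2 they were Kmt2b (0.999, or 0.975), Slc38a1 (0.998, or 0.970) and Rilpl2 (0.997, or 0.932). They are the highest values over all genes tested and are given as a description.

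In the authors' deposited table of the same comparison, an unadjusted p under 0.05 was reached by 0.382% of 31690 genes higher and 0.751% lower in L7, and by 0 of the 10 members. The authors' deposited table gave all 10 members an adjusted p of 1, where 9 genes (0.0284%) were under 0.05, with log2 fold changes from -0.29 (Ltbp1) to 0.56 (Ltbp4).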

How the data were processed

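RNA was measured by sequencing of poly-A selected libraries, per the labels, in 3 L7 and 3 control samples. The authors deposited a table of FPKM per gene and library, and a comparison table. Per the file headers that table gives p-values, adjusted p-values and a log2 fold change for each gene, beside the normalised signal averaged within each group. The authors also deposited over-representation p-values for Gene Ontology terms. Per the submitters' processing notes the build was mm10 and the tools named were DESeq 1.12.0, HISAT2 2.0.4, TopHat2 2.0.12 and Bowtie2 2.2.3. No source used here gives the counting program, annotation or strand setting. Reads were recovered from FPKM and the deposited group means, with library factors from genes that had reads in a single library of a group. A length factor per gene came from the ratio of the group means to depth-weighted FPKM. The result was whole reads for 152096 of 152096 values above 0 (100.000%, within 0.05), which give the depth and the reads for limma voom, an alternative.

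Symbols and coordinates came from the GENCODE annotation of mm10 by Ensembl identifier (51633 matched). Groups were compared two-sided by limma-trend (limma 3.58.1 in R 4.3.3) on log2(FPKM + 1). All 14788 genes with mean FPKM at or above 1 entered, p-values were adjusted over all of them by Benjamini-Hochberg, and the threshold was 0.05. All 10 members entered it. This scale understates changes of low genes. The test was also run on simulated reads with large changes and no outlying library. That run does not show how the test would perform on small differences or with a library like L7 replicate 3. Members and lists were chosen with earlier results of these data known. Beyond the members, each pathway list names its gene of highest mean FPKM and the 2 of smallest unadjusted p, and each role names the 3 genes most like its highest member. Smad7, Gm20544 and Acta1 were added as checks. Figures were made with Python 3.11.15 and matplotlib 3.10.9. The KEGG table was not used.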

Additional observations from a re-analysis of the deposited data

How the results depend on the processing

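Under 14 alternatives (pseudocount 0.1, no filter, median of ratios scaling, replicate block, each library left out, scaling with L7 replicate 3 left out, array weights, voom on recovered reads, and a sex covariate chosen after seeing the data), 0 of 140 member values passed the threshold, with adjusted p from 0.387 to 0.998, and 30 changed sign. Ltbp1 and Tgfbr3 kept a negative sign in all 14. Leaving out 1 library at a time gave log2 differences of -0.45 to 0.0057 for Tgfb1, -0.23 to 0.33 for Tgfb2, -0.36 to 0.18 for Tgfb3, -0.46 to 0.17 for Tgfbr1, -0.16 to 0.16 for Tgfbr2, -0.84 to 0.30 for Ltbp2, -0.096 to 0.14 for Ltbp3 and -0.21 to 0.59 for Ltbp4, -0.64 to -0.26 for Ltbp1 and -0.35 to -0.064 for Tgfbr3, whose value nearest 0 was without L7 replicate 3, and -0.035 with scaling as well. Signs turned without L7 replicate 3 for Tgfb1, Tgfb2, Tgfb3, Tgfbr1, Tgfbr2, Ltbp2 and Ltbp4. With scaling Tgfb3 was 0.022 and Tgfbr2 0.14. With scaling and without L7 replicate 3 the values were 0.037 for Tgfb1, -0.020 for Tgfb2, 0.21 for Tgfb3, 0.20 for Tgfbr1, 0.19 for Tgfbr2, 0.33 for Ltbp2 and -0.18 for Ltbp4. With array weights they were 0.031 for Tgfb1, -0.17 for Tgfb2, 0.062 for Tgfb3, 0.11 for Tgfbr1, 0.10 for Tgfbr2, 0.24 for Ltbp2 and -0.18 for Ltbp4. With the sex covariate Tgfb2 was -0.13, Ltbp3 -0.059 and Ltbp4 -0.14. The cause of these turns was not tested.

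Over all genes 3 passed with array weights, 1 with scaling and without L7 replicate 3, and 0 to 1 with a library left out. Members whose groups did not overlap numbered 0 to 2 with a library left out: Ltbp1 without L7 replicate 2 (21.3% of all genes lower), Ltbp2 without L7 replicate 3 (9.9% higher), Tgfbr3 and Ltbp1 without control replicate 3 (26.9% lower). It was 1, Ltbp2, with scaling and without L7 replicate 3 (12.6% higher). Of 209 list medians 4 moved by over 1 SD: endothelium markers to 0.17 with scaling, neutrophil markers to -0.058 with scaling and without L7 replicate 3, and adipocyte markers to 1.52 with pseudocount 0.1 and 1.64 with voom.

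Deviations from the group means correlated between libraries of the same number at 0.322, -0.065 and 0.087. Between libraries of different numbers they correlated at -0.346 to 0.22. With 3 libraries per group, 1 of them outlying, these values cannot settle whether the numbers pair the samples. With the replicate block no member changed sign, the smallest adjusted p of a member was 0.504 (Ltbp1, -0.45), and 0 genes passed. What size of difference these libraries could have shown was not measured.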

Other observations

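In the authors' deposited table of Gene Ontology terms, 4 terms name transforming growth factor beta, and 0 of the 10 family members are among the genes counted for them. Receptor binding held 3 of the 268 genes that the authors counted as changed (Bmp2, Gdf10 and Gdf7), against 51 of 21889 in the background. Its over-representation p-value was 0.0262 and its corrected p was 0.472 in the authors' deposited table. The threshold behind the 268 is not given here, and only 9 genes had an adjusted p under 0.05 in the authors' comparison. The cellular response term held 5 (Ankrd1, Arg1, Bmp2, Ccl2 and Penk), with a corrected p of 0.929 there. The receptor signaling pathway term held 2 (Bmp2 and Ccl2), with an over-representation p-value of 0.537 before correction.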
